A study of Mus musculus with 10 samples.

Results

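The comparison set stromal cells of the mouse prostate against Sca-1+ luminal cells of the same organ, gene by gene. It used 5 of the 10 libraries of the series, 2 labelled stromal and 3 labelled Sca-1+ luminal, chosen by the cell type in their labels and not by any measured value. All were sorted from dissociated prostates of C57BL/6 mice aged 8 to 12 weeks, after cells with lineage markers (Lin) had been gated out. Stromal cells were gated as negative for CD24 (gene Cd24a) and for CD49f (integrin alpha 6, gene Itga6). Sca-1+ luminal cells were gated as high for CD24, low for CD49f and positive for Sca-1 (gene Ly6a). Sca-1 was not part of the stromal gate, so stromal cells may carry it too. The other libraries, 2 basal and 3 Sca-1- luminal, entered the fit only through the shared estimate of spread. The labels name no genotype, treatment or separate animals for any library, so p-values measure the spread between these libraries, which may be technical. A protocol text that stands beside every library also describes growing dissociated prostate cells on collagen-coated plates, leaving unstated whether any of that growth came before sorting.

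Prostate stroma is made of fibroblasts and smooth muscle, which lay down matrix and send growth factors and chemokines to the gland. Luminal cells line the ducts, are joined by tight junctions and face the lumen with secretory or mucosal surfaces. Those with Sca-1 are known to be more frequent in the proximal ducts, near the urethra, where Psca and Krt4 are typical markers.

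Each library held a level for 24497 genes in FPKM, a count of fragments divided by transcript length and by the mapped total. The 5 libraries rested on 20.2 M to 27.1 M mapped fragments, estimated from the steps between low values. A gene was tested where it reached 1 FPKM in at least 2 of the 10 libraries, which 12453 genes did. Calls were made in limma at 0.05 after Benjamini-Hochberg adjustment. Differences are stromal minus Sca-1+ luminal on the log2(FPKM + 1) scale, which understates the change of low genes, and are given with their standard error (SE). Values per library stand in a fixed order, stromal replicates 1 and 2 first, then replicates 1, 2 and 3 of the Sca-1+ luminal cells, shortened to Sca-1+. These numbers follow the order of deposit, only name a library and do not pair libraries across groups. A gene at exactly 0 is described as listed at 0, since such a value can be a failed estimate.

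Epithelial genes set the 2 groups apart, and the 3 Sca-1+ libraries were not alike. Of the 12453 genes, 1674 (13.4%) were called, 1450 of them (11.6%) lower and 224 (1.8%) higher in stromal libraries. No called gene had overlapping groups. Among all genes tested, both stromal libraries lay below all 3 Sca-1+ libraries for 33.6% and above them for 12.9%. The split leaned less to one side under other scalings: 13.4% of the calls were higher in stromal libraries with FPKM as deposited, 33.1% after median-of-ratios scaling and 37.8% after quantile normalization. The count of calls was 378 without stromal replicate 1, 754 without stromal replicate 2, 3047 without Sca-1+ replicate 1 and 1100 without Sca-1+ replicate 2. The median difference over all genes tested was -0.16, and that of each gene group below is to be set beside it. Counts of calls in a list are likewise to be set beside the 11.6% called lower and 1.8% called higher in this fit. Those of another fit are to be set beside its own calls over all genes. The latter were 34 higher and 344 lower of 12336 genes without stromal replicate 1. They were 30 and 724 of 12338 without stromal replicate 2. For Sca-1+ libraries they were 1077 and 1970 of 12347 without replicate 1, and 146 and 954 of 12371 without replicate 2. Without replicate 3 they were 201 and 1178 of 12373.

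The sort genes and markers showed where the labels held. Cd24a stood at 25.2 and 57.0 FPKM in stromal and at 197, 412 and 1091 FPKM in Sca-1+ libraries, lower in stromal libraries by 3.52 ± 0.63 on the log2 scale (SE, adjusted p = 0.00621). Itga6 stood at 1.15 and 2.99 against 21.1, 40.2 and 47.5 FPKM. Both followed the gates, with no overlap between the groups. Ly6a, which lies at 74994877 to 74998031 of chromosome 15 in build mm10, stood at 1290 and 1930 against 677, 1116 and 2301 FPKM and was not called (0.39 ± 0.63, adjusted p = 0.71). Its groups overlapped, with both stromal libraries above 2 of the 3 sorted for Sca-1, and reads of its near copies in the Ly6 family may be counted with it.

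Psca, a lipid-anchored antigen of the cell surface (chromosome 15, 74714839 to 74717069), stood at 8.86 and 37.9 against 465, 1386 and 3356 FPKM. The difference was -6.05 ± 0.93 (adjusted p = 0.00309). The stromal mean was 0.0503 of the level in Sca-1+ replicate 1, 0.0169 of that in replicate 2 and 0.00697 of that in replicate 3. Psca was thus lowest in stromal replicate 1 and highest in Sca-1+ replicate 3, and the same order of libraries held for Krt4 (chromosome 15, 101918535 to 101924735), a keratin of stratified and proximal epithelium. Krt4 stood at 0.823 and 2.10 against 64.1, 92.1 and 380 FPKM (difference -5.80 ± 0.67, adjusted p = 0.000999).

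Col1a1 (chromosome 11, 94936224 to 94953042), the chain of collagen I that marks fibroblasts, went against the label of 1 library. It stood at 317 and 314 FPKM in stromal libraries against 360, 190 and 22.4 FPKM in those sorted for Sca-1. Sca-1+ replicate 1 lay above both stromal libraries and replicate 3 far below them. Col1a1 was not called over the 3 libraries (1.43 ± 0.92, adjusted p = 0.32), and was called higher against Sca-1+ replicate 3 alone (3.76, adjusted p = 0.000682). Sca-1+ replicate 1, and in part replicate 2, therefore held the RNA of matrix genes next to that of Psca and Krt4. In such bulk samples fewer cells of a type and less RNA per cell cannot be told apart.

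**Figure D1:**
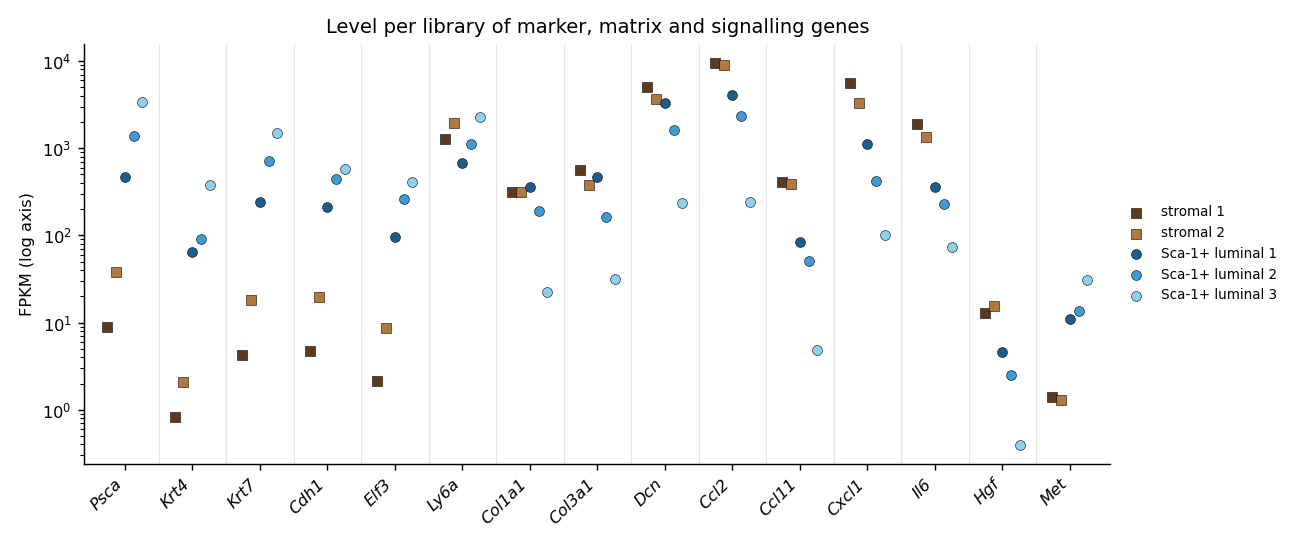
Level of 15 genes in each library, in FPKM on a log axis, with squares for the 2 stromal and circles for the 3 Sca-1+ libraries. Psca, Krt4, Krt7, Cdh1, Elf3 and Met lie lower in both stromal libraries, Ccl2, Ccl11, Cxcl1, Il6 and Hgf lie higher, and the squares of Col1a1, Col3a1 and Ly6a overlap with the circles.

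Against each Sca-1+ library by itself, calls on both sides were fewest with replicate 1 and most numerous with replicate 3. With replicate 1 alone, 0.481% of genes were called higher and 3.66% lower in stromal libraries. The shares were 2.29% and 7.8% with replicate 2 alone, and 14.7% and 16.4% with replicate 3 alone. In these fits 1 library stands for the group and is taken to vary as the libraries of the other groups do. Of the 1450 genes called lower in stromal libraries, 957 (66%) were lowest in Sca-1+ replicate 1, between in replicate 2 and highest in replicate 3, an order that 29.2% of the genes tested had. Of the 224 genes called higher, 126 (56.2%) had the opposite order, against 25.8% of the genes tested.

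**Figure D2:**
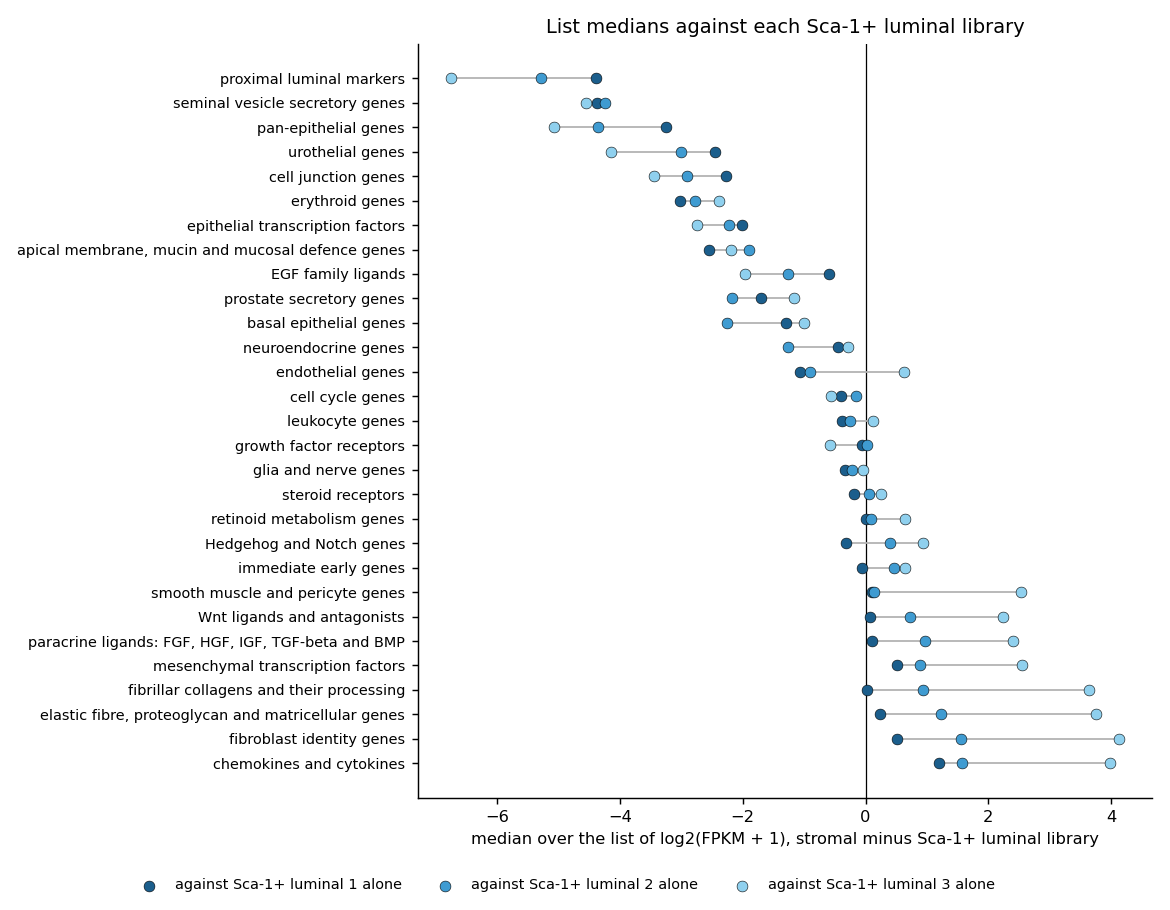
Median difference of each gene list on the log2(FPKM + 1) scale, stromal minus 1 Sca-1+ library at a time, with a circle for each of the 3 libraries. Epithelial lists lie left of 0 against every library, while the medians of collagen and matrix lists lie near 0 against replicate 1 and above 3 against replicate 3.

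Proximal luminal markers were lower in stromal libraries for 11 of the 12 genes of the list, with a median difference of -5.48. Krt7, a simple-epithelium keratin, stood at 4.30 and 18.2 against 242, 708 and 1499 FPKM (-5.98 ± 0.84, adjusted p = 0.00212). Clu, a secreted chaperone, stood at 40.6 and 107 against 1384, 2516 and 8331 FPKM (-5.52 ± 0.74, adjusted p = 0.00189). In both, stromal replicate 2 lay above stromal replicate 1 and still below every Sca-1+ library. Cyp2f2, a cytochrome P450, was also among the 10 largest decreases, at 3.88 and 7.07 against 134, 245 and 669 FPKM (-5.49 ± 0.59, adjusted p = 0.000803). Cp, the copper carrier ceruloplasmin, was the exception, at 61.6 and 75.2 against 41.9, 27.2 and 5.01 FPKM, higher in both stromal libraries though not called (1.83 ± 0.68, adjusted p = 0.106). The list had 7 genes called lower without stromal replicate 1.

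Genes shared by most epithelia were lower in stromal libraries for all 16 genes of the list, with a median of -4.13. Cdh1, E-cadherin, stood at 4.67 and 19.5 against 210, 442 and 571 FPKM (-5.13 ± 0.70, adjusted p = 0.00192). Krt19 stood at 34.4 and 116 against 1041, 1876 and 5016 FPKM, and its partner in the simple-epithelium keratins, Krt8, at 14.1 and 88.1 against 448, 1528 and 1533 FPKM. Cldn7, a claudin of the lateral membrane, stood at 4.88 and 21.6 against 130, 424 and 726 FPKM. All 16 genes were higher in stromal replicate 2 than in stromal replicate 1, and all 16 were lowest in replicate 1 among the Sca-1+ libraries. Summed over the list, the level was 211 and 772 FPKM in stromal and 4342, 9828 and 16186 FPKM in Sca-1+ libraries. The part of this epithelial RNA in the calls was not tested. Without stromal replicate 1, 6 of the 16 were called lower, while lower calls over all genes tested fell from 1450 to 344.

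Transcription factors of epithelia were lower in stromal libraries for 15 of 18, with a median of -2.28. Elf3, an ETS factor of differentiated epithelium, stood at 2.15 and 8.63 against 96.0, 262 and 408 FPKM (-5.31 ± 0.60, adjusted p = 0.000957). Foxa1, a pioneer factor that opens chromatin, stood at 3.23 and 5.98 against 49.8, 89.0 and 167 FPKM (-4.07 ± 0.46, adjusted p = 0.000987). Foxq1, a forkhead factor of mucosal epithelium, stood at 0.938 and 0.833 against 14.4, 25.8 and 118 FPKM (-4.28 ± 0.68, adjusted p = 0.00386). These factors were again highest in Sca-1+ replicate 3. Esrp2, a regulator of epithelial splicing, stood at 0.768 and 1.38 against 14.1, 20.1 and 51.9 FPKM and was called lower (-3.64 ± 0.48, adjusted p = 0.00166). The low Elf5, at 0.0212 and 0.0441 against 1.76, 1.42 and 0.925 FPKM, was not called (adjusted p = 0.125). Its groups did not overlap, and it was called with a pseudocount of 0.1 and with only the 5 libraries in the fit. Without stromal replicate 1 the list had 7 genes called lower, and without stromal replicate 2 it had 10.

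Cell junction genes were lower in stromal libraries for 18 of 20, with a median of -2.83. Ocln, occludin of the tight junction, stood at 1.14 and 3.21 against 34.4, 48.9 and 87.3 FPKM (-4.17 ± 0.45, adjusted p = 0.000822). Its cytoplasmic neighbour Cgn, cingulin, stood at 0.344 and 0.655 against 11.6, 23.7 and 30.8 FPKM (-3.85 ± 0.38, adjusted p = 0.000803). F11r, the junctional adhesion molecule JAM-A, stood at 4.11 and 6.23 against 52.2, 85.3 and 136 FPKM (-3.82 ± 0.37, adjusted p = 0.000779). The desmosomal plakophilin Pkp3 was lower too, at 0.833 and 2.70 against 16.4, 26.9 and 67.6 FPKM. Cldn1 (adjusted p = 0.293) and Pkp2 (adjusted p = 0.0931) were not called. Cldn1 overlapped between the groups, with 4.99 FPKM in Sca-1+ replicate 3 against 6.69 FPKM in stromal replicate 2. The count was 8 without stromal replicate 1.

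Apical membrane and mucosal genes were lower in stromal libraries for 9 of the 13 members tested of 20 listed, with a median of -2.0. The tetraspanins of apical membranes led them. Tspan8 stood at 10.9 and 11.7 against 70.9, 226 and 622 FPKM (-4.14 ± 0.72, adjusted p = 0.00566), and Tspan1 at 16.5 and 31.0 against 211, 321 and 639 FPKM (-3.90 ± 0.45, adjusted p = 0.000999). The water channel gene Aqp5 stood at 0.484 and 1.03 against 10.5, 12.7 and 40.8 FPKM (-3.43 ± 0.53, adjusted p = 0.00328). Wfdc18, a small secreted protein with a WAP domain, was lower by 3.33 ± 0.28 (adjusted p = 0.000588). Lcn2, an iron-trapping defence protein, overlapped between the groups at 26.8 and 73.6 against 62.1, 162 and 119 FPKM, and Prom1, an apical membrane glycoprotein, at 18.2 and 23.5 against 29.1, 24.5 and 32.4 FPKM, did not, though neither was called. Sprr2a3, an envelope protein of stratified epithelium and one of the 10 largest decreases, stood at 1.42 and 6.77 against 71.8, 160 and 891 FPKM (-5.66 ± 0.95, adjusted p = 0.00478), and its near copies in the family may share reads. Lower calls numbered 4 without stromal replicate 1 and 6 without stromal replicate 2.

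Urothelial genes were lower in stromal libraries for 8 of 10, with a median of -3.02. Upk1b, a plaque protein, stood at 3.62 and 7.56 against 51.9, 64.6 and 145 FPKM (-3.67 ± 0.44, adjusted p = 0.00117). Upk1a behaved alike, at 6.05 and 11.02 against 61.2, 105 and 152 FPKM (-3.44 ± 0.40, adjusted p = 0.00102). The keratin gene Krt6a (-4.70 ± 0.87, adjusted p = 0.00714) and the transcription factor gene Gata3 (-3.35 ± 0.57, adjusted p = 0.00522) were lower as well. All 4 were lowest in Sca-1+ replicate 1 and highest in replicate 3. Without stromal replicate 1 the count fell to 3, and without stromal replicate 2 to 5.

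Genes listed for basal epithelium divided. Krt15, at 14.1 and 41.7 against 571, 935 and 3225 FPKM, was called lower in stromal libraries (-5.57 ± 0.80, adjusted p = 0.00238). The basement membrane laminin gene Lama3 (-1.60 ± 0.29, adjusted p = 0.00683) and the laminin receptor gene Itgb4 (-3.67 ± 0.59, adjusted p = 0.00406) were lower too. These 3 genes were highest in Sca-1+ replicate 3. The classical basal keratins were not: Krt14 stood at 6.89 and 24.2 against 57.4, 139 and 9.40 FPKM, and Krt17 at 5.90 and 46.5 against 64.2, 297 and 22.8 FPKM. Krt5, named after its values were seen, stood at 1.31 and 6.63 against 5.92, 20.0 and 7.46 FPKM. All 3 were highest in replicate 2, overlapped with the stromal libraries and were not called. Of the 13 genes tested of 14 listed, 5 were called lower, with a median of -1.57, and without stromal replicate 1 there was 1.

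Secretory genes of the prostate were mostly lower in stromal libraries, with 8 of 14 called lower, 1 higher and a median of -1.63. Tgm4, the transglutaminase of the seminal plasma plug, stood at 126 and 254 against 1009, 787 and 903 FPKM (-2.32 ± 0.39, adjusted p = 0.00515). Crisp1, a cysteine-rich secreted protein, stood at 0.706 FPKM and 0 against 30.6, 26.0 and 34.2 FPKM (-4.57 ± 0.56, adjusted p = 0.00123). Mmp7, an epithelial metalloprotease, was lower by 2.85 ± 0.54 (adjusted p = 0.00826). Pbsn, probasin, an androgen-driven product of secretory luminal cells, was at 349 and 1262 FPKM in the stromal libraries themselves, against 1842, 4001 and 2578 FPKM, and was not called (-2.01 ± 0.71, adjusted p = 0.0914). The list summed to 3821 and 7927 FPKM in stromal and to 13406, 24432 and 4914 FPKM in Sca-1+ libraries, and the part of this secretory RNA in the other results was not tested. Cd59b, a complement regulator placed in this list, was the 1 member called higher, at 1.17 and 1.71 against 0.329, 0.557 and 0.320 FPKM (0.80 ± 0.19, adjusted p = 0.0235), and was not called with a pseudocount of 0.1. The list had 2 genes called lower without stromal replicate 1.

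Spink1 differed widely among the Sca-1+ libraries. This secreted protease inhibitor stood at 2289 and 3767 against 7848, 13625 and 7.96 FPKM. Both stromal libraries lay below replicates 1 and 2 and far above replicate 3, and the gene was not called (1.57 ± 2.52, adjusted p = 0.71). Sbpl, named after its values were seen and uncertain because of its near copy Sbp, had the same pattern, at 83.6 and 162 against 361, 475 and 0.664 FPKM. Sca-1+ replicate 3 thus held the most Psca, Krt4 and Krt15 and the least of these 2 secretory genes.

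Seminal vesicle genes, which belong to another gland of the same tract, were lower in stromal libraries for 4 of the 7 tested of 8 listed, with a median of -4.34. Svs2 stood at 23.1 and 41.0 against 2875, 1484 and 1665 FPKM (-5.92 ± 1.18, adjusted p = 0.0104). Svs5 (-5.00 ± 1.14, adjusted p = 0.019), Svs4 (-4.34 ± 1.15, adjusted p = 0.0339) and Pate4 (-5.49 ± 1.15, adjusted p = 0.0131) were lower as well. The 3 Sca-1+ libraries held similar levels of Svs4, at 210, 211 and 265 FPKM. Of the 7 genes tested, 5 were highest in Sca-1+ replicate 1, unlike Psca and Krt4. None of the 4 calls held without stromal replicate 1 or without stromal replicate 2, and near copies in the Svs and Pate families make each value uncertain.

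**Figure D3:**
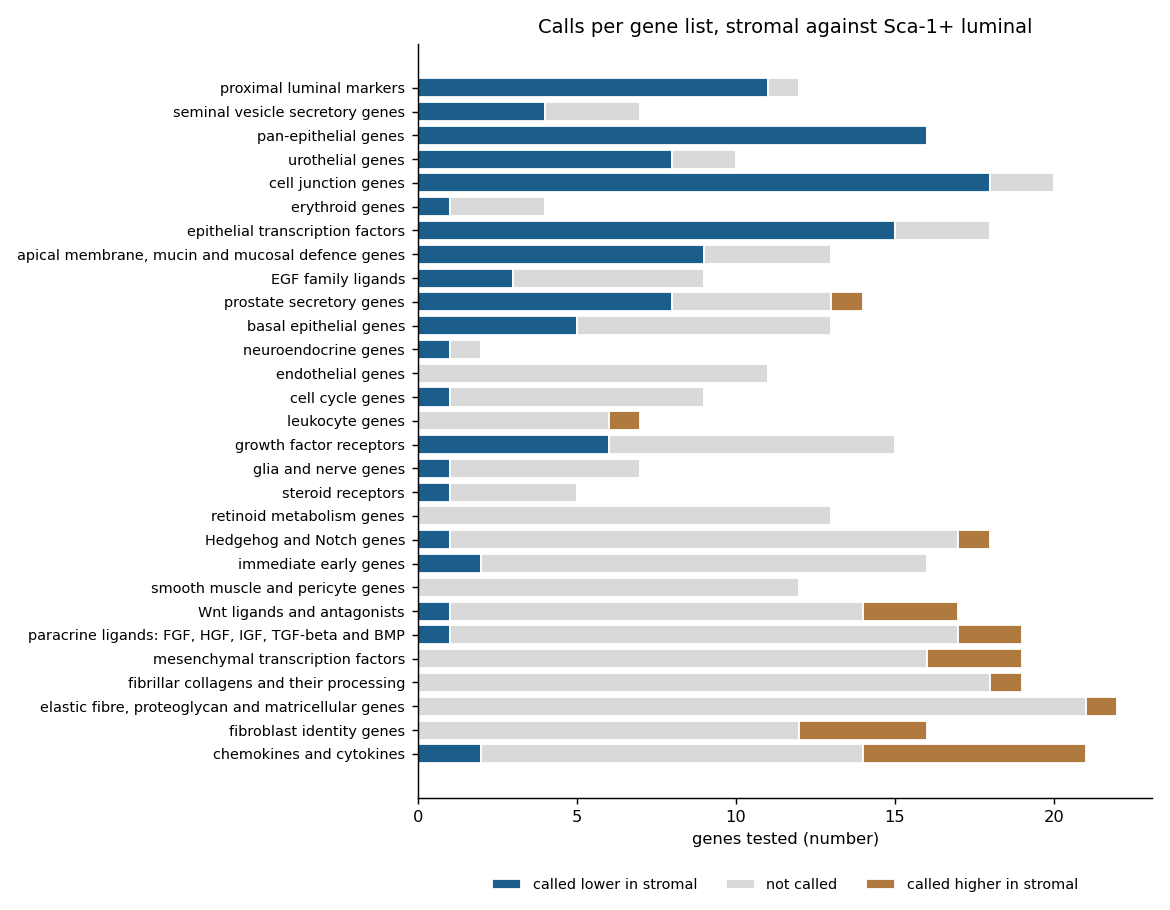
Number of genes of each list called lower in stromal libraries, not called and called higher in stromal libraries, as stacked bars over the genes tested. The lists are in the order of their median difference, with proximal luminal markers at the top (11 of 12 lower) and chemokines and cytokines at the bottom (7 of 21 higher).

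Chemokines and cytokines, the signals that draw and feed leukocytes, were the list with the most calls higher in stromal libraries, 7 of the 21 tested of 22 listed, with 2 lower and a median of 2.15. Ccl11 (chromosome 11, 82057823 to 82062955), eotaxin, stood at 406 and 384 against 84.1, 50.4 and 4.90 FPKM (3.74 ± 0.92, adjusted p = 0.0255). Cxcl1, a neutrophil attractant, stood at 5668 and 3291 against 1123, 425 and 99.8 FPKM (3.57 ± 0.88, adjusted p = 0.0256). Il6 stood at 1904 and 1349 against 355, 227 and 73.5 FPKM (3.14 ± 0.58, adjusted p = 0.00707). Unlike Col1a1, these signals were several-fold lower even in Sca-1+ replicate 1: the stromal mean was 4.69 times that library's level for Ccl11, 3.99 times for Cxcl1 and 4.58 times for Il6. Ccl11 and Il6 were called against replicate 1 alone (adjusted p = 0.0479 and 0.0339), and Cxcl1 was not (adjusted p = 0.194).

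The B cell attractant gene Cxcl13 had the largest increase of those named, at 195 and 64.4 against 33.0, 6.29 and 1.14 FPKM (3.81 ± 0.93, adjusted p = 0.0251). Cxcl5, another neutrophil attractant, stood at 35.1 and 74.5 against 8.16, 6.08 and 2.31 FPKM (3.12 ± 0.48, adjusted p = 0.00331). It was called in every fit that left out 1 library. A further pair of called members was looked up after their values were seen. Cxcl2 stood at 760 and 491 against 224, 117 and 58.4 FPKM (2.39 ± 0.65, adjusted p = 0.0377). Ccl8 stood at 5.99 and 8.97 against 1.38, 4.05 and 0.397 FPKM (1.71 ± 0.49, adjusted p = 0.0472). Neither call held with no filter on low values, with only the 5 libraries, without stromal replicate 1 or without stromal replicate 2. That of Ccl8 was also lost with a pseudocount of 0.1. The most abundant members, the monocyte attractants Ccl2 and Ccl7, lay higher in both stromal libraries but were not called. Ccl2 stood at 9476 and 9084 against 4052, 2356 and 245 FPKM (2.80 ± 1.01, adjusted p = 0.0973), and Ccl7 at 6667 and 5623 against 2501, 1371 and 171 FPKM (2.87 ± 0.94, adjusted p = 0.0732). The 2 members called lower in stromal libraries were Cxcl15 (0.233 and 0.323 against 6.20, 13.2 and 27.7 FPKM, adjusted p = 0.00194) and the membrane-bound Cxcl16 (32.9 and 47.3 against 81.4, 114 and 197 FPKM, adjusted p = 0.0292). The Cxcl16 call was lost after median-of-ratios scaling, with only the 5 libraries in the fit, and without either stromal library.

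The count of chemokines and cytokines called higher was 1 without stromal replicate 1, 2 without stromal replicate 2, 12 without Sca-1+ replicate 1 and 4 without Sca-1+ replicate 2. With only the 5 libraries in the fit it was 1. Against Sca-1+ replicate 1 alone 3 of 21 were called higher, against replicate 2 alone 7, and against replicate 3 alone 17. Leukocytes can carry such RNA. Of their 16 genes 7 passed the filter on low values, and S100a8, which neutrophils carry, was called higher in stromal libraries, as the chemokines were. Cd68, a lysosomal protein of macrophages, overlapped at 3.54 and 11.6 against 7.79, 18.3 and 6.0 FPKM and was not called (adjusted p = 0.711). Ptprc, the general leukocyte marker, stood at 0.0572 and 0.145 against 0.192, 0.0197 and 0.129 FPKM, near 0 in all 5 libraries. The sum of the 16 leukocyte genes was 16.5 and 36.1 FPKM in stromal and 26.1, 31.5 and 17.8 FPKM in Sca-1+ libraries, a range that overlapped. The part of leukocyte RNA in the chemokine calls was not tested.

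Several of these genes are textbook targets of NF-kB, and short motif matches stand before their start sites. The promoters of Cxcl1, Cxcl2 and Il6 are shown because all 3 genes were called higher and each holds a match to an NF-kB-like motif, GGGA and TTCC with any 2 bases between them on either strand, within the 150 bases printed. They were read from RefSeq (build GRCm38.p6, plus strand) and end at the base before the annotated start site, with the match in capitals. The runs lie at chr5:90891095-90891244, chr5:90903749-90903898 and chr5:30012964-30013113. Matches on the 2 strands overlap in Cxcl1 and Cxcl2.
Cxcl1: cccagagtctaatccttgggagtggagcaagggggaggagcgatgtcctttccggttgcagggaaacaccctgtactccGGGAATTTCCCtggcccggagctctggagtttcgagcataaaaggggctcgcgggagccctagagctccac
Cxcl2: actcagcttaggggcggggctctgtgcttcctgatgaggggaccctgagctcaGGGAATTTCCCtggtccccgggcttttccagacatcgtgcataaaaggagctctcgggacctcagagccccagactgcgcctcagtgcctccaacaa
Il6: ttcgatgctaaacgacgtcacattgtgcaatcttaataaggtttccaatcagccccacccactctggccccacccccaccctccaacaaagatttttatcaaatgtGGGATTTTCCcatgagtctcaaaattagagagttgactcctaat
Of the 15 chemokine and cytokine genes with a RefSeq window, 5 had a match in the 250 bases before a start site. Of all 32851 windows that RefSeq gave, 397 (1.21%) had one, a share of windows and not of genes. Cxcl10 and Csf1, the other genes of the list with a match, were not called. The called genes Cxcl13, Ccl8 and Cxcl15 had a window with no match. No window was given for the called genes Ccl11, Cxcl5 and Cxcl16 or for the abundant Ccl2 and Ccl7. A match is a description of letters only, and binding was not measured.

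Ratios between genes of the same library compared the stromal signals with a fibroblast gene, a measure chosen after the data were seen. RNA that holds neither gene leaves such a ratio as it is. The ratio of Ccl2 to Col1a1 was 29.9 and 28.9 in stromal and 11.3, 12.4 and 10.9 in Sca-1+ libraries. For Ccl11 it was 1.28 and 1.22 against 0.234, 0.266 and 0.219, and for Ccl7 it was 21.1 and 17.9 against 6.95, 7.23 and 7.65. The 3 Sca-1+ libraries, whose Col1a1 ranged from 22.4 to 360 FPKM, were close to one another in these 3 ratios, and both stromal libraries lay above all of them. Il6 had ratios of 6.01 and 4.30 against 0.988, 1.20 and 3.28, and Cxcl1 of 17.9 and 10.5 against 3.12, 2.24 and 4.46. Cxcl2 overlapped, at 2.40 and 1.56 against 0.623, 0.615 and 2.61.

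Of 21 chemokines and cytokines, 10 had a higher ratio to Col1a1 in both stromal libraries than in all Sca-1+ libraries, against 4 of 18 collagen genes, 5 of 19 mesenchymal transcription factors, 7 of 22 elastic fibre, proteoglycan and matricellular genes and 6 of 16 fibroblast genes. Among all genes tested 2.1% did so, and 2.06% with Col1a2 in place of Col1a1. Those low shares follow in part from the measure. Col1a1 stood at only 22.4 FPKM in Sca-1+ replicate 3, so a gene that does not fall with it has a raised ratio there. The share over all genes therefore cannot show an excess in these lists. With Col1a2 the counts of the 5 lists were 10 of 21, 5 of 18, 6 of 19, 4 of 22 and 5 of 16 in the same order. Of 19 paracrine ligands, Hgf and Igf1 among them, 3 had a higher ratio to Col1a1 in both stromal libraries, and of 17 Wnt genes 2 did. With Col1a2 both counts were 2. No test was made on ratios, because an exact rank test of 2 libraries against 3 cannot give a 2-sided p under 0.2. The matrix gene Col3a1 had ratios of 1.79 and 1.22 against 1.32, 0.854 and 1.40, with overlap, and Dcn of 16.1 and 11.6 against 9.06, 8.58 and 10.4, without.

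**Figure D4:**
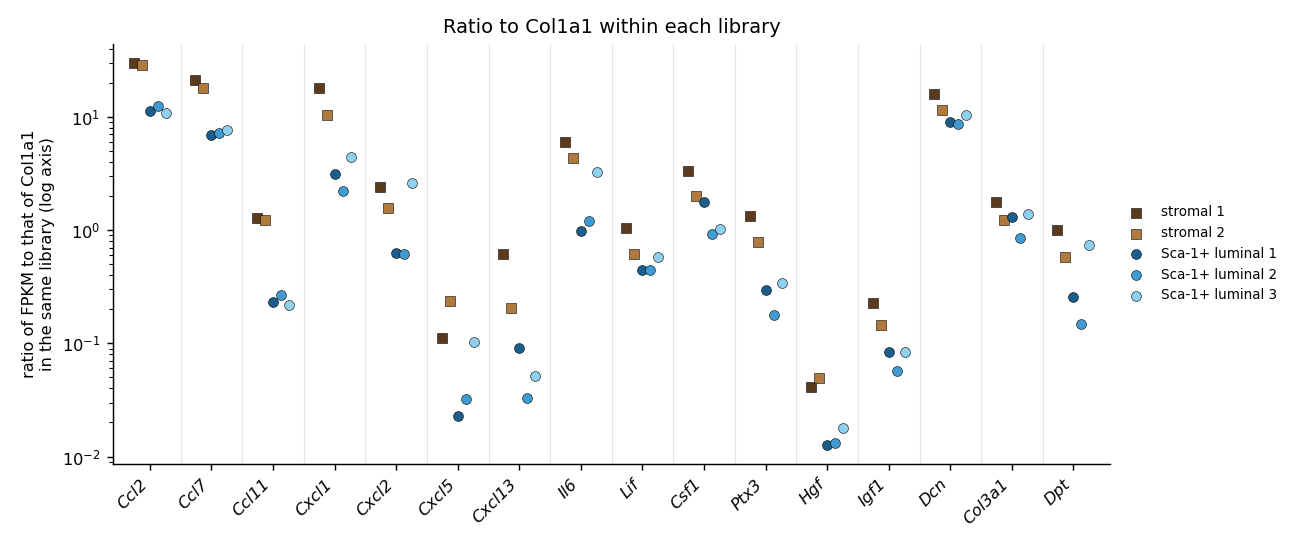
Ratio of FPKM to that of Col1a1 in the same library for 16 genes, on a log axis, with squares for stromal and circles for Sca-1+ libraries. Squares lie above all circles for genes such as Ccl2, Ccl7, Ccl11, Cxcl1, Il6, Hgf and Igf1, and overlap with them for Cxcl2, Col3a1 and Dpt.

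Collagens and the enzymes that process them were higher in stromal libraries by a median of 1.57, yet 1 of 19 was called. That gene, Loxl2, a lysyl oxidase that crosslinks collagen, stood at 32.5 and 36.6 against 11.8, 11.6 and 1.51 FPKM (2.26 ± 0.61, adjusted p = 0.0357). Col3a1 stood at 567 and 383 against 473, 162 and 31.4 FPKM (1.78 ± 0.91, adjusted p = 0.216), and the collagen chaperone gene Serpinh1 at 330 and 488 against 357, 211 and 31.3 FPKM (adjusted p = 0.213). In both, Sca-1+ replicate 1 fell between the stromal libraries. All 19 genes were highest in replicate 1 and lowest in replicate 3 of the Sca-1+ libraries. Against replicate 3 alone all 19 were called higher, with a median of 3.64, and against replicate 1 alone 1 was, with a median of 0.03. The count was 11 without Sca-1+ replicate 1, 2 without replicate 3, and 0 without either stromal library.

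Among elastic fibre, proteoglycan and matricellular genes 1 of 22 was called higher, Dpt, with a median of 1.67. Dpt, dermatopontin, which binds decorin and collagen fibrils, stood at 318 and 181 against 92.9, 28.4 and 16.5 FPKM (2.72 ± 0.61, adjusted p = 0.0177). Dcn, decorin, the most abundant proteoglycan here, stood at 5091 and 3639 against 3258, 1629 and 233 FPKM, with no overlap, and was not called (2.0 ± 0.88, adjusted p = 0.16). Against Sca-1+ replicate 3 alone all 22 were called higher, with a median of 3.75. Without Sca-1+ replicate 1 the count was 14, without replicate 3 it was 2, and it was 0 without any of the other 3 libraries.

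Genes that mark fibroblasts included 4 of 16 called higher, Dpt among them, with a median of 2.08. Clec3b, tetranectin, stood at 238 and 85.9 against 33.7, 12.4 and 5.92 FPKM (3.29 ± 0.64, adjusted p = 0.00935). Thy1, the surface protein CD90, stood at 8.72 and 16.2 against 1.58, 3.74 and 0.713 FPKM (2.23 ± 0.40, adjusted p = 0.00657). S100a4, a calcium-binding protein of fibroblasts and leukocytes, stood at 29.1 and 46.8 against 11.04, 16.9 and 11.9 FPKM (1.43 ± 0.33, adjusted p = 0.0185). The groups did not overlap for any of the 4. Sult1e1, an estrogen sulfotransferase, stood at 1052 and 288 against 281, 60.7 and 12.2 FPKM and was not called (3.17 ± 1.08, adjusted p = 0.0831). The count was 14 without Sca-1+ replicate 1, 6 without replicate 3, and 1 without stromal replicate 1 or stromal replicate 2. With only the 5 libraries in the fit, which drops the spread of the basal and Sca-1- luminal libraries, it was 0, as it was for the collagen list, the elastic fibre, proteoglycan and matricellular list and the mesenchymal transcription factors.

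Another 3 secreted proteins outside those lists were among the 10 largest increases. Ptx3, a soluble pattern receptor that cytokines induce, stood at 423 and 249 against 107, 33.7 and 7.70 FPKM (3.35 ± 0.82, adjusted p = 0.0253). Mgp, an inhibitor of calcification, stood at 2319 and 4926 against 714, 946 and 188 FPKM (2.75 ± 0.64, adjusted p = 0.0212). Tfpi2, an inhibitor of serine proteases, stood at 91.2 and 72.6 against 23.6, 18.9 and 2.98 FPKM (2.72 ± 0.66, adjusted p = 0.0249). For all 3 genes both stromal libraries lay above every Sca-1+ library.

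Of 19 mesenchymal transcription factors tested of 22 listed, 3 were called higher, with a median of 1.33. Wt1 stood at 17.9 and 14.8 against 6.39, 2.90 and 0.563 FPKM (2.28 ± 0.51, adjusted p = 0.0176). Hand2, a factor of urogenital mesenchyme, stood at 3.72 and 8.64 against 1.55, 1.97 and 0.199 FPKM (1.69 ± 0.41, adjusted p = 0.0232). Gli1, a transcription factor and target of Hedgehog signalling, stood at 4.64 and 6.71 against 2.90, 2.27 and 0.409 FPKM (1.33 ± 0.39, adjusted p = 0.0488). None of the 3 was called with a pseudocount of 0.1. Zeb1 (1.99 ± 0.79, adjusted p = 0.123) and Tcf21 (1.75 ± 0.82, adjusted p = 0.181) were the most abundant factors not called, and both lay higher in each stromal library than in each Sca-1+ library. The count was 10 without Sca-1+ replicate 1, 5 without replicate 3, 1 without stromal replicate 1 and 0 without stromal replicate 2.

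Smooth muscle and pericyte genes gave 0 calls in limma among the 12 tested of 16 listed, with 2 at an unadjusted p under 0.05 and a median of 0.69. Both stromal libraries lay above all 3 Sca-1+ libraries for 5 of the 12, and for 12.9% of all genes tested. Acta2, smooth muscle actin, stood at 44.5 and 76.0 against 91.5, 111 and 7.52 FPKM (0.41 ± 0.93, adjusted p = 0.799). Tagln stood at 39.0 and 83.4 against 68.4, 124 and 8.62 FPKM (adjusted p = 0.792). In both genes Sca-1+ replicate 2 was the highest library and replicate 3 the lowest. All 12 genes were lowest in replicate 3 among the Sca-1+ libraries, and against that library alone 10 of the 12 were called higher, with a median of 2.53. Higher calls numbered 2 without Sca-1+ replicate 1, 1 without replicate 2 and 1 or 2 under the other scalings, and lower calls 2 without replicate 3.

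Hgf and its receptor were called on opposite sides. Hgf, the ligand that mesenchyme sends to epithelium, stood at 12.98 and 15.7 against 4.57, 2.49 and 0.397 FPKM (2.34 ± 0.48, adjusted p = 0.0119). Met, its receptor, stood at 1.39 and 1.31 against 10.99, 13.8 and 30.4 FPKM (-2.92 ± 0.42, adjusted p = 0.00236). Both were called against each Sca-1+ library alone, Hgf with adjusted p between 0.000213 and 0.0471 and Met between 0.000371 and 0.0211. Hgf was not called without stromal replicate 1 or without stromal replicate 2, whereas Met was called in every fit that left out 1 library.

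Of the 19 paracrine ligands tested of 21 listed, 2 were called higher and 1 lower, with a median of 1.12. Nog, the BMP antagonist noggin, was the second increase, at 2.68 and 3.16 against 0.594, 0.991 and 0.283 FPKM (1.29 ± 0.22, adjusted p = 0.00522). Fgf1 was the decrease, at 5.33 and 8.27 against 27.6, 20.7 and 33.5 FPKM (-1.86 ± 0.29, adjusted p = 0.0036). Igf1 stood at 72.0 and 45.4 against 29.9, 10.7 and 1.88 FPKM, with no overlap, and was not called (2.52 ± 0.77, adjusted p = 0.0578). Fgf7 and Fgf10, the stromal ligands of Fgfr2, were looked up after their values were seen and overlapped between the groups. Fgf7 stood at 39.4 and 18.6 against 21.1, 7.79 and 2.08 FPKM, and Fgf10 at 5.64 and 2.59 against 4.67, 1.38 and 0.287 FPKM. Ligands called higher numbered 12 without Sca-1+ replicate 1 and 0 without either stromal library.

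Receptors of growth factors were lower in stromal libraries for 6 of 15, with a median of -0.25, close to that of all genes. Fgfr2 stood at 4.94 and 2.56 against 16.7, 12.6 and 20.5 FPKM (-1.91 ± 0.40, adjusted p = 0.0124), and Fgfr3 at 1.82 and 0.947 against 6.71, 6.22 and 17.9 FPKM (-2.12 ± 0.42, adjusted p = 0.0105). Erbb3, a receptor of neuregulins, stood at 0.309 and 0.254 against 5.03, 5.24 and 8.93 FPKM (-2.49 ± 0.28, adjusted p = 0.000957). Neither stromal library reached the lowest Sca-1+ library in any of these 3 genes. Erbb2 (-1.39 ± 0.27, adjusted p = 0.0086) and Bmpr1b (-1.62 ± 0.47, adjusted p = 0.0479) completed the count beside Met, and Bmpr1b was not called under either other scaling. The most abundant receptors were not called: Fgfr1 stood at 180 and 181 against 129, 65.7 and 8.58 FPKM (adjusted p = 0.132), and Pdgfra, a receptor that marks fibroblasts, at 77.4 and 114 against 89.1, 49.6 and 4.48 FPKM (adjusted p = 0.25). Without stromal replicate 1 the count was 3, and without stromal replicate 2 it was 2.

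Of the EGF family ligands, 3 of the 9 tested of 10 listed were lower in stromal libraries and 6 were not called, with a median of -1.65. Egf stood at 1.89 and 2.73 against 23.6, 15.4 and 11.9 FPKM (-2.40 ± 0.29, adjusted p = 0.00126). Hbegf stood at 24.4 and 30.8 against 112, 200 and 243 FPKM (-2.64 ± 0.48, adjusted p = 0.00663), and Tgfa at 2.42 and 1.85 against 9.44, 12.4 and 25.3 FPKM (-2.30 ± 0.42, adjusted p = 0.00644). Egf was highest in Sca-1+ replicate 1, and the other two in replicate 3. Ereg, named after its values were seen, went the other way at 3.98 and 1.09 against 1.01, 0.598 and 1.03 FPKM and was not called (0.79 ± 0.34, adjusted p = 0.147). Areg overlapped, at 5.59 and 14.6 against 14.2, 30.7 and 141 FPKM, and was not called (adjusted p = 0.164). The count was 1 without stromal replicate 1 and 5 without Sca-1+ replicate 1.

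Wnt ligands were called on both sides. Wnt7b, a ligand made by epithelia, stood at 0.347 and 0.585 against 10.5, 15.4 and 55.6 FPKM (-3.91 ± 0.56, adjusted p = 0.00229). Wnt10a stood at 8.80 and 9.50 against 5.10, 1.58 and 1.08 FPKM (1.67 ± 0.41, adjusted p = 0.0248), and Wnt6 at 4.04 and 3.38 against 1.53, 1.10 and 0.369 FPKM (1.28 ± 0.28, adjusted p = 0.0149). The Wnt-binding protein gene Sfrp2 was the third called higher of 17 tested and 20 listed, at 66.9 and 64.6 against 33.8, 18.3 and 8.93 FPKM (1.83 ± 0.46, adjusted p = 0.0274). Both groups were apart in all 4 genes. Wif1, a Wnt inhibitor and the most abundant member not called, stood at 315 and 569 against 273, 188 and 31.5 FPKM (adjusted p = 0.131). The count of higher calls was 8 without Sca-1+ replicate 1, 1 without replicate 2 and 0 without either stromal library. It was also 0 with a pseudocount of 0.1 and 0 with only the 5 libraries in the fit.

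In the Hedgehog pathway a ligand and a target were called on opposite sides. Ihh, the ligand Indian hedgehog, stood at 0.0908 and 0.0395 against 2.67, 2.54 and 9.64 FPKM and was lower in stromal libraries (-2.28 ± 0.47, adjusted p = 0.0117). Gli1 was higher, as above, and no other of the 18 Hedgehog and Notch genes tested of 23 listed was called. Over all genes tested 11.6% were called lower and 1.8% higher. Neither call held without stromal replicate 1 or without stromal replicate 2.

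Retinoid genes gave 0 calls in limma among 13 tested of 16 listed, 4 having an unadjusted p under 0.05. Higher calls of the list numbered 3 without Sca-1+ replicate 1, 3 after median-of-ratios scaling and 2 after quantile normalization. Over all 12453 genes these scalings gave 536 and 616 higher calls. Without Sca-1+ replicate 3, 1 member was called lower. Aldh1a3, which makes retinoic acid, stood at 60.7 and 56.5 against 65.2, 149 and 160 FPKM (adjusted p = 0.326). Rdh10, which makes retinaldehyde, stood at 74.8 and 158 against 67.9, 71.5 and 72.7 FPKM (adjusted p = 0.285). Among 5 steroid receptors tested of 6 listed, 1 was called. Nr3c2, the mineralocorticoid receptor, stood at 0.408 and 0.227 against 1.96, 1.42 and 3.34 FPKM and was lower in stromal libraries (-1.26 ± 0.31, adjusted p = 0.0252). That call was lost under quantile normalization and without either stromal library.

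Markers of other cell types gave few calls. Of 4 erythroid genes tested of 6 listed 1 was called. All 4 lay lower in both stromal libraries than in every Sca-1+ library, as did 33.6% of all genes tested. Hba-a1, a hemoglobin gene with a near copy, stood at 5.28 and 14.8 against 126, 89.7 and 49.2 FPKM and was not called (adjusted p = 0.0555). Hbb-bs had the same direction and was not called (adjusted p = 0.0745), and Alas2, which starts heme synthesis in red cell precursors, was the gene called lower in stromal libraries (-1.33 ± 0.30, adjusted p = 0.0175). With only the 5 libraries in the fit all 4 were called lower. A gene lower in stromal libraries is therefore not epithelial by that fact alone. The 11 endothelial genes tested of 12 listed had 0 calls in limma and 0 at an unadjusted p under 0.05. Their list summed to 21.1 and 23.7 against 58.3, 50.6 and 8.53 FPKM, and without Sca-1+ replicate 3 there were 5 genes called lower. Mbp, a myelin gene that also has non-glial transcripts, was called lower in stromal libraries (1.02 and 1.99 against 10.6, 20.6 and 35.7 FPKM, adjusted p = 0.00212). The other glia and nerve genes tested were not called. S100a8 was the 1 leukocyte gene called, higher in stromal libraries at 4.83 and 12.3 against 0.907, 1.41 and 0.426 FPKM (2.24 ± 0.37, adjusted p = 0.0045). Its usual partner S100a9 was listed at 0 in each of the 5 libraries, and the part of these cell types in the results was not tested.

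Immediate early genes, which dissociation can raise, summed to 7322 and 7019 FPKM in stromal and 7444, 6105 and 4956 FPKM in Sca-1+ libraries. Atf3 stood at 185 and 262 against 571, 671 and 630 FPKM (-1.50 ± 0.42, adjusted p = 0.0421) and Jund at 81.0 and 95.1 against 191, 196 and 184 FPKM (-1.10 ± 0.28, adjusted p = 0.0283). Both were lower in stromal libraries among 16 tested, near the 11.6% of all genes tested that were called lower. Neither call held under median-of-ratios scaling. Among 9 cell cycle genes tested of 16 listed, Mcm2, a subunit of the replicative helicase, was lower in stromal libraries (1.26 and 1.57 against 3.68, 5.04 and 6.44 FPKM, adjusted p = 0.0156). No other gene of that list was called, so its share was also near that of all genes. Rrm2, which makes deoxynucleotides, lay higher in both stromal libraries, at 66.4 and 113 against 50.2, 37.5 and 14.7 FPKM, and was not called (adjusted p = 0.129). Chga, a neuroendocrine granule protein, was called lower in stromal libraries at a low level (0.0485 and 0.0265 against 0.912, 2.93 and 0.916 FPKM, adjusted p = 0.0367), and not under either other scaling.

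Some called genes were listed at 0 throughout 1 group, and no fold is given for them. Of 42 such genes in the stromal libraries, the 5 with the highest floor in the other group were 2200002D01Rik, Entpd4, Acsm3, Strbp and Sval1. Acsm3, an acyl-CoA synthetase of mitochondria, stood at 8.75, 22.1 and 56.5 FPKM in Sca-1+ libraries. Entpd4, a nucleotidase of the Golgi that most cells use, stood at 9.0, 9.84 and 11.3 FPKM, and Strbp, an RNA-binding protein, at 7.89, 11.5 and 13.3 FPKM. Of 12 genes listed at 0 throughout the Sca-1+ group, those with the highest floor were Blzf1, Stk16, Kat8, Sco2 and Cnot3. Kat8, an acetyltransferase of histone H4 found in most cells, stood at 5.49 and 7.34 FPKM in stromal libraries. Genes of general use at 0 on either side may be failed estimates, which was not tested.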

How the data were processed

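RNA of sorted mouse prostate cells was sequenced in 10 libraries. Per the labels' protocols, cDNA was made with a NuGEN Ovation kit that primes with both random and poly(dT) primers. Whether strand was kept is not given in the sources used here. TopHat and Cufflinks on build mm10 and, for demultiplexing, bcl2fastq 1.8.3 are the tools listed per the submitters' processing notes. The authors deposited FPKM per transcript, with Cufflinks' bounds for it. The deposited coverage, a mean depth of bases, was used only to estimate depth.

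Of 63241 transcripts, 53718 (84.9%) were given a gene symbol from their mm10 coordinates with GENCODE M21 and RefSeq of GRCm38.p6, the same assembly. Transcripts under 300 nt (8006) were left out, and FPKM was summed per gene. For 27 transcripts the status column did not read as estimated everywhere, so 7 genes were dropped, Sbp and Lama2 included. Genes with near copies and overlapping or antisense genes are uncertain.

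Depth was worked out from how low FPKM values of isolated transcripts step, of which 91.6% to 94.6% lay within 0.05 of a whole number. Depth and fragment length were chosen to make that share largest, so the share does not test the estimate. Counts were not rebuilt for all genes, so no count model was used. The precision of each value is limited by this depth and by the number of libraries.

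limma 3.58.1 in R 4.3.3 was fitted to log2(FPKM + 1), with a pseudocount of 1, over all 10 libraries with 1 mean per group (lmFit, contrasts.fit and a trended eBayes, leaving 6 residual degrees of freedom). The script was tested on simulated data. Tables came from pandas 2.3.3 and figures from matplotlib 3.10.9, under Python 3.11.15.

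The 29 gene lists (435 genes) and the genes compared were chosen with earlier results of these data known, and some lists share genes. Named genes were the sort and marker genes, the 10 largest called differences each way among genes at 10 FPKM or more in every library of the higher group, 5 genes each way listed at 0 in 1 group, up to 4 called members of a list per direction and up to 2 members not called with the highest mean. Some genes that this rule picks are not reported here. A further 13 genes were named after their values were seen. Alternatives were another pseudocount, no filter, 2 scalings, only the 5 libraries, other transcript rules, each library left out and each Sca-1+ luminal library alone.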

Additional observations from a re-analysis of the deposited data

How the results depend on the processing

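No paired analysis was possible because the labels carry no replicate numbers, and those used here follow the order of deposit. The 1674 calls (224 higher and 1450 lower in stromal libraries) moved by over 1.5 times under several choices, and the cause was not tested unless stated. Leaving out 1 library gave 378 to 3047 calls, 30 to 1077 higher and 344 to 1970 lower. With only the 5 libraries, which leaves 3 residual degrees of freedom, 785 were called, 34 higher and 751 lower. Transcripts matched at both ends gave 625, 89 higher and 536 lower, with only 5532 genes tested. Higher calls numbered 120 with a pseudocount of 0.1, 536 after median-of-ratios scaling and 616 after quantile normalization, and these scalings moved the median of all genes by 0.23 and 0.22. Against Sca-1+ replicate 1 alone 507 genes were called, 59 higher and 448 lower. Against replicate 2 alone 953 were lower, and against replicate 3 alone 3794 were called, 1796 of them higher. With no filter 1505 genes were called, and with short transcripts kept 1657.

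No called gene named in the report changed its direction. Genes that were not called did so in some fits. Against Sca-1+ replicate 1 alone the difference was -0.64 for Acta2, -0.19 for Col1a1, -0.02 for Col3a1, -0.22 for Fgf10, -0.26 for Tagln, -1.62 for Sbpl and -1.42 for Spink1. Against replicate 2 alone it was -0.92 for Acta2, -1.10 for Tagln, -2.02 for Sbpl and -2.21 for Spink1. Against replicate 3 alone it was 0.44 for Krt14, 0.12 for Cd68 and -0.54 for Ly6a. Without Sca-1+ replicate 3 it was -0.78 for Acta2, -0.68 for Tagln, -1.82 for Sbpl and -1.82 for Spink1, and without replicate 1 it was -0.02 for Ly6a. Over all fits that left out 1 library the difference ran from -0.78 to 1.08 for Acta2, from -1.22 to 0.26 for Cd68, from -0.02 to 0.86 for Ly6a, from -1.82 to 2.26 for Sbpl, from -1.82 to 3.47 for Spink1 and from -0.68 to 1.17 for Tagln, which was -0.13 without stromal replicate 2.

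The stromal group holds 2 libraries, so a single library decides many calls, and a gene that was not called is not shown to be equal. Values near or below 1 FPKM rest on the fewest fragments.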
